A study of Homo sapiens with 48 samples.

Results

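The 48 genes described here act as a cell leaves G2 and divides: they drive entry into mitosis, build the spindle and the kinetochores, hold and release the spindle checkpoint, compact the chromosomes and split the cell. They were given by symbol, matched to the rows of the deposited count files by Ensembl identifier, and make up 48 of the 58870 genes in those files. RNA was sequenced from 3 uveal melanoma cell lines, 92-1, MEL202 and MP41, each labelled as wild type and each given FHT-1015, an inhibitor of SMARCA4 and SMARCA2, the alternative ATPases of BAF chromatin remodelling complexes, or DMSO, the solvent control. Line 92-1 was also given IDE196, an inhibitor of protein kinase C, with a separate set of DMSO samples. Each treatment was sampled at 4 h and at 24 h, which gives 16 groups of 3 samples and 48 samples in all. The samples of a group are numbered as biological replicates of 1 line, with nothing to say how far the cultures were separate, so the tests measure the spread between such samples. The doses are not given in the sources used here.

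Mitotic genes are switched on in order through the cell cycle. In resting cells and in G1 the DREAM complex, which holds the MuvB core with a pocket protein and E2F4, keeps them silent through a promoter element called the CHR. Later in the cycle the MuvB core exchanges these partners for B-MYB, the product of MYBL2, and then recruits FOXM1, and the same promoters become active in G2. MYBL2 itself is a gene of the G1/S wave, driven by E2F factors. The products include CDK1 with its cyclins, which starts mitosis, and the anaphase-promoting complex with CDC20, which ends it by destroying securin and cyclin B. RNA of these genes is high only in cycling cells and peaks in G2 and M. In a bulk sample, fewer cells in G2 or M and less RNA per such cell cannot be told apart.

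The promoters of the genes on which the results turn are printed first, because they differ in the motifs they hold: an E2F form in MYBL2, a CCAAT alone in AURKB, and a CHR with 1 or more CCAAT in the other 4. The windows searched run from 250 bases before to 50 bases after a RefSeq start (GRCh38.p14), and 41 of the 48 members had one. Those without were FOXM1, TPX2, TTK, UBE2C, AURKA, BIRC5 and PBK. The stretches below are the 140 bases before the start, read 5′ to 3′ on the strand of the gene. Capitals mark matches to the CHR (TTTGAA or TTTAAA), to CCAAT and to E2F forms, on either strand, so ATTGG is a CCAAT on the other strand. The E2F forms searched were the site TTGGCGC, the site TTCGCGC, the site TTCCCGC and, as a last form, the site TTGGCGG. This last was added after the MYBL2 promoter had been read. The set was chosen after the values were seen, since the genes lower in all 4 comparisons at 24 h, MYBL2 and AURKB, hold no CHR in their windows. MYBL2 lies at chr20:43666974-43667113 (+), AURKB at chr17:8210250-8210389 (-), INCENP at chr11:62123871-62124010 (+), CCNB2 at chr15:59105006-59105145 (+), KIF20A at chr5:138178972-138179111 (+) and PLK1 at chr16:23678749-23678888 (+).
MYBL2: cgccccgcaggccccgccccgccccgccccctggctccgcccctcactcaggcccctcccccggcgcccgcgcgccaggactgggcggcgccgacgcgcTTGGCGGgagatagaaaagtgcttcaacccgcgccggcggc
AURKB: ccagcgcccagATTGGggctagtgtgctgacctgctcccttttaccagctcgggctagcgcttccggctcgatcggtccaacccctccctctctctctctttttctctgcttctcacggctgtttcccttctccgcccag
INCENP: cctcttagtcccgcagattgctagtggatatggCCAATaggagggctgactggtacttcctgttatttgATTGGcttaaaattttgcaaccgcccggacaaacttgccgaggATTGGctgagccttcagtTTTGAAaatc
CCNB2: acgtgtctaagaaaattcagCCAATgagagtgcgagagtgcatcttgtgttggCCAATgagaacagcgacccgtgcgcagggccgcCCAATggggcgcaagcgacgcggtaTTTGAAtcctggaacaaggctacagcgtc
KIF20A: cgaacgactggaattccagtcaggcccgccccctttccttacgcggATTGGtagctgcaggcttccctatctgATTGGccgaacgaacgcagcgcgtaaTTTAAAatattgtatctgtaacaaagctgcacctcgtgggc
PLK1: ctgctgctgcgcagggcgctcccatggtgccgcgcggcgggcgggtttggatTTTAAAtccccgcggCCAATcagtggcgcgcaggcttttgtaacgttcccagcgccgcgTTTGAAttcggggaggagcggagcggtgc

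With the base before the start counted as -1, and a match placed by its first base, the CHR began at -29 in CCNB2, at -41 in KIF20A, at -10 in INCENP and at -88 and -29 in PLK1. CCNB2 held 3 CCAAT boxes ahead of its CHR, at -120, -87 and -54. In MYBL2 the E2F form began at -41. Of the 41 members with a window, 36 (87.8%) held a CHR, against 27.85% of 27305 genes with a window of that length and 14.71% of 34 S phase and replication genes. The 5 without were AURKB, BUB1, CCNA2, MELK and MYBL2. A CCAAT was present in 73.17% of members, 61.76% of the S phase genes and 39.72% of all genes, and an E2F form in 46.34%, 88.24% and 16.33%. E2F forms that did not overlap a CCAAT were found in 43.9%, 82.35% and 15.21%. A match describes letters only, not a bound site.

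The libraries held between 11394088 and 32317711 reads in genes (median 19996476). Levels are given as CPM, reads of a gene relative to the reads in genes of its library, with TMM scaling between the libraries of an experiment, and are compared within a gene only. Calls of lower or higher rest on edgeR's quasi-likelihood test, with p-values adjusted by Benjamini and Hochberg's method across every gene tested and a threshold of 0.05. Changes are log2 of treated over DMSO with their standard error (SE). The summed level of 8 melanocyte markers had a median of 16521 CPM in 92-1, 8508 in MEL202 and 12911 in MP41, over treated and control libraries together. S100B was near 0 in 92-1 (median 0.0953 CPM) and DCT was low in 92-1 and MEL202 (medians 2.98 and 0.844 CPM). With FHT-1015 at 24 h every melanocyte marker tested was lower in each line. SOX10 changed by -4.69 in 92-1, -5.43 in MEL202 and -4.74 in MP41. With IDE196 at 24 h DCT (3.17) and SOX10 (0.67) rose and TYR fell (-0.36). The part of these changes in the results was not tested. The highest sums in any library were 14.3 CPM for 5 epithelial markers, 4.54 for 5 leukocyte markers, 43.6 for 5 fibroblast markers and 4.63 for 4 endothelial markers. In 4 libraries the counts leaned towards GC-rich genes, by 0.408 to 0.883 log2 units per 10 points of GC, while the other 44 lay between -0.1685 and 0.09494. They were the MP41 controls 1 and 2 of 24 h and, in MEL202 at 4 h, control 1 and treated library 2. The members are AT-rich (median GC 42.89%, against 47.81% over 10947 genes with more than 100 reads on average), so results of MP41 and MEL202 are given with and without those libraries.

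FHT-1015 lowered the mitotic genes of 92-1 as a body at 24 h. Of the 47 members tested, 42 fell and 1 rose, with a median of -0.93, while 31.4% of all genes tested fell and 29.2% rose. The mitotic transcription factor gene MYBL2 fell most, then MELK, a kinase high in mitosis, and NCAPG, a condensin subunit. At 4 h 6 members were lower and 1 higher without a replicate block, with a median of -0.19, and more were lower with a block. Other measures moved with the drug at 24 h: the mitochondrial share of reads was 8.20%, 9.32% and 9.55% in the treated libraries and 7.07%, 7.39% and 7.43% in the controls, and the 20 most abundant genes took 16.1% to 16.5% against 13.4% to 13.7%. Every melanocyte marker tested fell, from TYRP1 (-1.25) to DCT (-5.81). Of the 5 fibroblast markers 2 could be tested, COL1A1, which rose (1.92), and LUM, which fell (-1.84). The part of these in the result was not tested. The map of changes shows the 48 genes in the 8 comparisons.

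**Figure D1:**
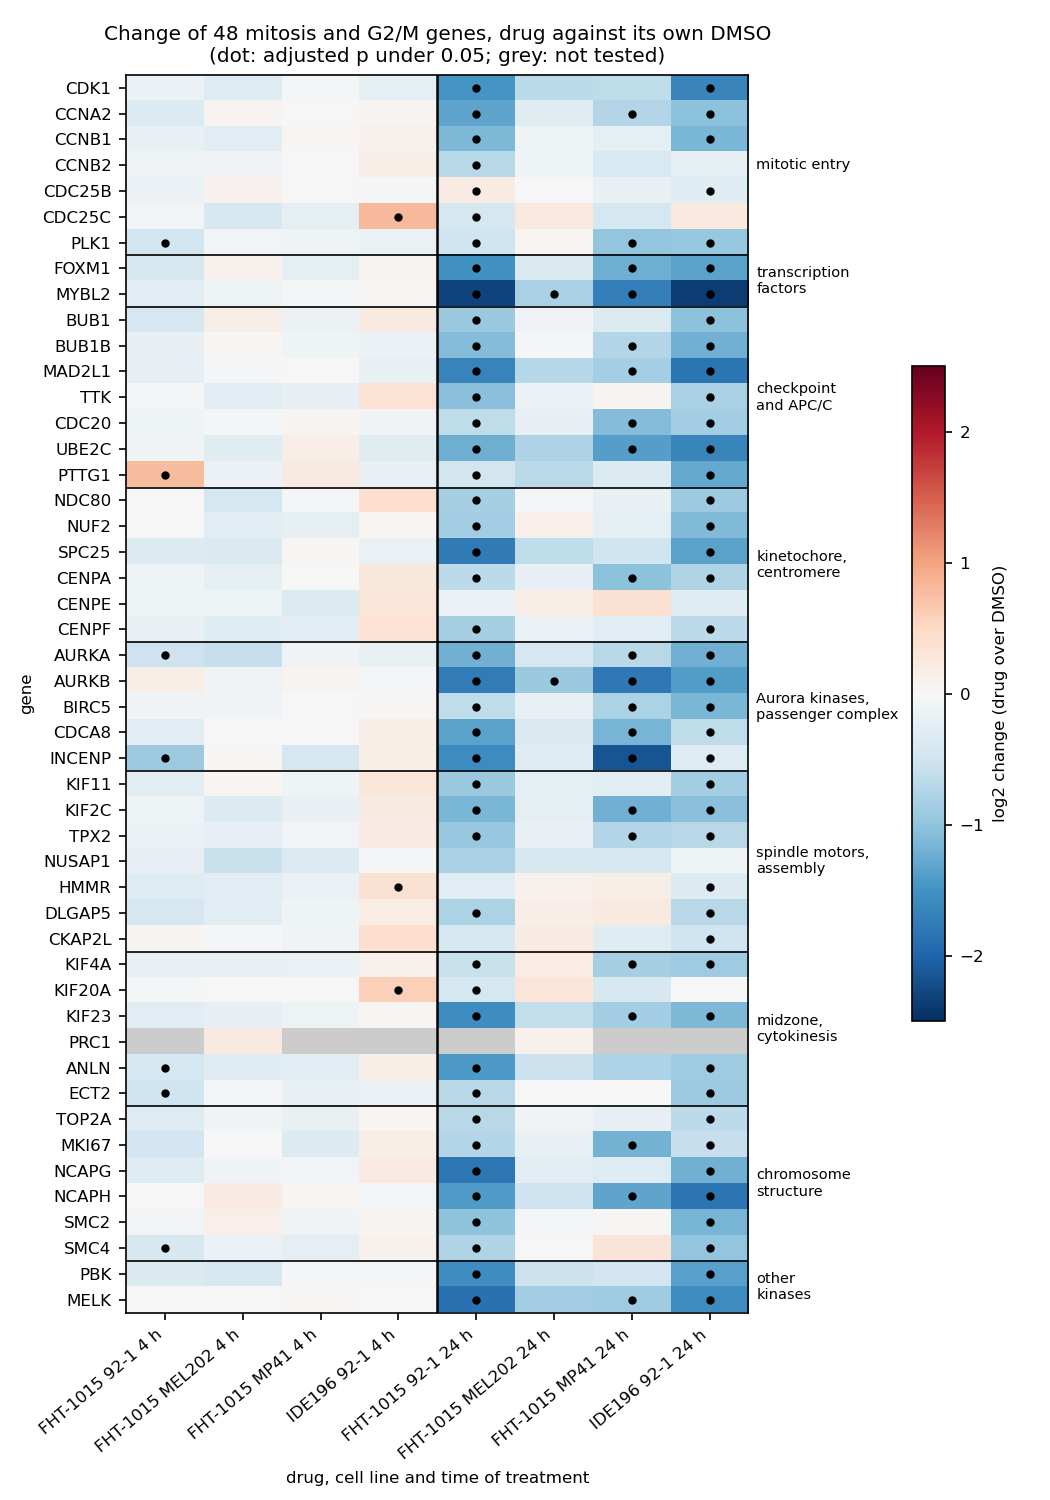
Log2 change (treated over DMSO) of the 48 genes, in rows by role, in the 8 comparisons of a drug with its DMSO, in columns, where blue to red is lower to higher, a dot marks an adjusted p under 0.05 and grey a gene not tested. The columns of 92-1 at 24 h carry 42 falls with each drug, that of MP41 21 and that of MEL202 2.

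MYBL2 stood at 223, 198 and 203 CPM in the DMSO libraries of 92-1 at 24 h and at 49.9, 43.4 and 32.9 CPM with FHT-1015. The change was -2.31 (SE 0.12, adjusted p = 3.4e-10). Every treated library lay far under every control. FOXM1, the forkhead factor that joins B-MYB on mitotic promoters, was at 98.2, 78.7 and 76.8 CPM with DMSO and 39.5, 30.0 and 19.6 CPM with the drug, a change of -1.51, again with no overlap.

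Of the 7 genes that drive mitotic entry, 6 fell and 1 rose (median -0.69). CDK1, the mitotic kinase, went from 177, 144 and 140 CPM to 65.9, 58.6 and 41.0 CPM (-1.48, SE 0.14). CCNB1, its main cyclin partner, went from 205, 187 and 171 CPM to 105, 86.5 and 66.2 CPM (-1.13, SE 0.13). In both genes the groups were apart, and replicate 3 was the lowest treated library. CCNA2, the cyclin of S phase and G2, fell by 1.33 on the log2 scale and CCNB2, the second B cyclin, by 0.69. PLK1, which activates CDK1 and matures centrosomes, fell less, by 0.49: its treated libraries, at 47.8, 38.6 and 27.1 CPM, overlapped controls at 57.1, 47.3 and 55.1 CPM. CDC25C, a phosphatase that activates CDK1, fell by 0.43 from a low level. CDC25B, the phosphatase that starts that activation, was the member that rose, by 0.20 (SE 0.08, adjusted p = 0.031), from 157, 156 and 155 CPM to 176, 195 and 168 CPM. Its call was lost when any of 8 single libraries was left out, namely each of the 6 controls and treated library 2 of 4 h or of 24 h.

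All 7 genes of the spindle checkpoint and the anaphase-promoting complex fell (median -1.05). MAD2L1, the checkpoint protein that holds CDC20 inactive, fell by 1.66 from a mean of 95 CPM to 30.2 CPM. UBE2C, the ubiquitin-conjugating enzyme of the complex, fell by 1.23, the checkpoint kinases BUB1B, TTK and BUB1 by 1.09, 1.05 and 0.93, and CDC20 by 0.63. PTTG1, securin, fell by 0.45. MAD2L1 thus had the largest change of the group and PTTG1, which the complex destroys, the smallest, in point estimate.

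Among the 6 kinetochore and centromere genes 5 fell (median -0.83). SPC25, of the NDC80 complex that grips microtubules, fell by 1.78, while its partners NUF2 and NDC80 fell by 0.87 and 0.83. CENPF fell by 0.83 and CENPA, the centromeric histone, by 0.66. CENPE, a kinetochore motor, was not called (-0.15, adjusted p = 0.5).

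The 5 genes of the Aurora kinases and the chromosomal passenger complex all fell (median -1.33). AURKB, the kinase of that complex, went from 56.5, 61.3 and 50.1 CPM to 21.1, 18.3 and 11.1 CPM (-1.74, SE 0.17). INCENP, its scaffold, changed by -1.57 and CDCA8, borealin, by -1.33. AURKA, the spindle pole kinase, changed by -1.21, and BIRC5, survivin, by -0.64. The kinase and the scaffold of the passenger complex therefore fell further than its survivin subunit in point estimate, a difference between genes that was not tested.

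Spindle motors and assembly factors were the most mixed role, with 4 of 7 called lower (median -0.81). KIF2C, a microtubule depolymerase, fell by 1.13, TPX2, the activator of Aurora A, by 0.95, KIF11, the motor that separates the poles, by 0.93, and DLGAP5 by 0.80. The spindle proteins CKAP2L (-0.43, adjusted p = 0.064), NUSAP1 (-0.81, 0.072) and HMMR (-0.27, 0.28) did not pass. All 5 midzone and cytokinesis genes tested fell: KIF23, a subunit of centralspindlin, by 1.55, ANLN, anillin of the contractile ring, by 1.44, ECT2, the activator of RhoA at the cleavage site, by 0.69, and the motors KIF4A by 0.55 and KIF20A by 0.45. The group thus ran from 1.55 in centralspindlin to 0.45 in KIF20A, whose libraries with FHT-1015 (49.3, 41.3 and 25.3 CPM) nearly reached the DMSO libraries (51.1, 57.0 and 49.5 CPM).

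All 6 chromosome structure genes fell (median -0.88). The condensin subunit NCAPG went from 56.3, 45.1 and 48.3 CPM to 18.7, 14.7 and 9.89 CPM (-1.80), and its partner NCAPH changed by -1.42. The condensin ATPases SMC2 and SMC4 changed by -1.01 and -0.74. TOP2A, topoisomerase II, went from 407, 321 and 318 CPM to 276, 213 and 155 CPM (-0.70), and MKI67, the Ki-67 proliferation antigen, changed by -0.74. The kinases PBK and MELK changed by -1.55 and -1.86, MELK from 70.8, 59.5 and 54.3 CPM to 17.7, 19.3 and 14.2 CPM.

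Replicate 3 was the lowest of the 3 libraries with FHT-1015 at 24 h for all 47 members. Its median over members, against the mean of the DMSO libraries, was -1.47 on the log2 scale, beside -0.61 and -0.87 in replicates 1 and 2. Without it, 39 members were lower at 24 h, with a median of -0.73. PRC1, the microtubule bundler of the midzone, had 0 to 16 reads in any library and among the 4 experiments fitted with all their libraries was tested in MEL202 only. NUSAP1 was at 6.5 CPM at most. Both overlap other annotated genes, as do 25 further members, and with unstranded counts reads in an overlap may be lost from the gene.

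**Figure D2:**
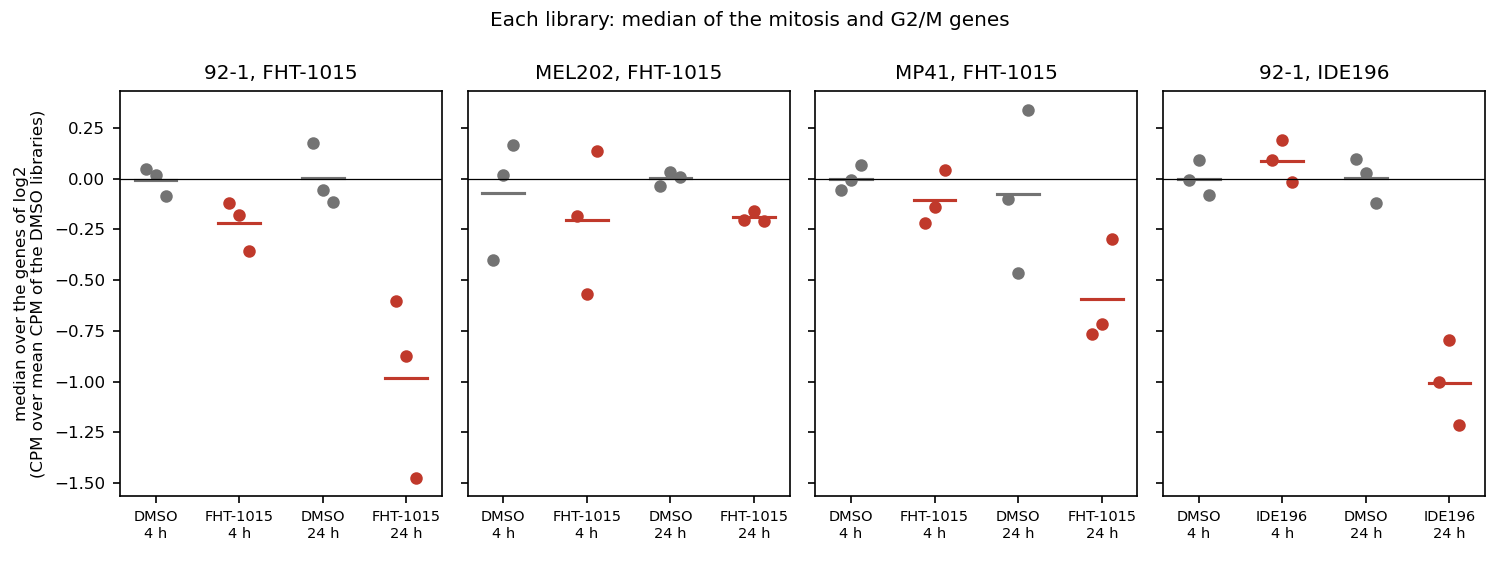
Median over members of log2 (CPM over the mean CPM of the DMSO libraries of that time), 1 point per library, for the 4 experiments at 4 h and 24 h. At 24 h the treated libraries of 92-1 lay from -0.61 to -1.47 with FHT-1015 and from -0.80 to -1.21 with IDE196, and the MP41 libraries with DMSO were spread from -0.46 to 0.34.

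At 4 h FHT-1015 gave few calls among the members in 92-1. Of 47 members 6 were lower and 1 was higher (median -0.19), where 16.7% of all genes tested were lower and 12.9% higher, so the share of members called without a block was under the background. INCENP changed most: it stood at 127, 148 and 127 CPM with DMSO and at 72.3, 78.2 and 63.2 CPM with the drug (-0.91, SE 0.15, adjusted p = 0.00034). AURKA (-0.52), PLK1 (-0.49), ECT2 (-0.49), ANLN (-0.45) and SMC4 (-0.41) were the others called lower. PTTG1 rose at this time, from 186, 178 and 171 CPM to 282, 280 and 366 CPM (0.79, SE 0.11, adjusted p = 8.5e-05). Both genes had groups that did not overlap, and MYBL2 (203, 214 and 186 CPM, then 159, 169 and 166 CPM) was apart too without being called. In all, 22 of the 47 members had every treated library under every control, against 22.4% of all genes.

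The same-numbered libraries of 92-1 deviated together at 4 h. With the replicate number as a block 15 of 47 members were lower, MYBL2, FOXM1, MKI67, TOP2A and CCNA2 among them. The share of members was then over the 18.9% of all genes, where it was under the background without a block. The count without a block moved with single libraries. Leaving out control 1 of 4 h, or treated library 2 or 3 of 4 h, gave 2, and leaving out control 2 or 3 gave 3. Leaving out treated library 1 or 3 of 24 h, which entered the estimate of the spread only, gave 11 and 14.

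The change between the times was tested directly. In 92-1 with FHT-1015, 31 members were lower at 24 h than at 4 h relative to DMSO and 1 was higher, where 24.3% and 21.1% of all genes did so. MYBL2 had the smallest p (-2.02, SE 0.16), followed by MELK (-1.87) and AURKB (-1.89). PTTG1, high at 4 h and low at 24 h, changed by -1.24. The member that was higher was CDC25B, by 0.34, and this call was lost without control 3 of 4 h or treated library 2 of 24 h. In the DMSO libraries themselves no member of this experiment differed between 24 h and 4 h (0 called of 47 by edgeR and by DESeq2, 7 at an unadjusted p under 0.05 by either tool, with 0.344% of all genes called). None was called in DMSO alone in the IDE196 experiment or in MEL202 either, by edgeR or DESeq2 (4 and 0 at an unadjusted p under 0.05 by edgeR, with 0.266% and 0% of all genes called).

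**Figure D3:**
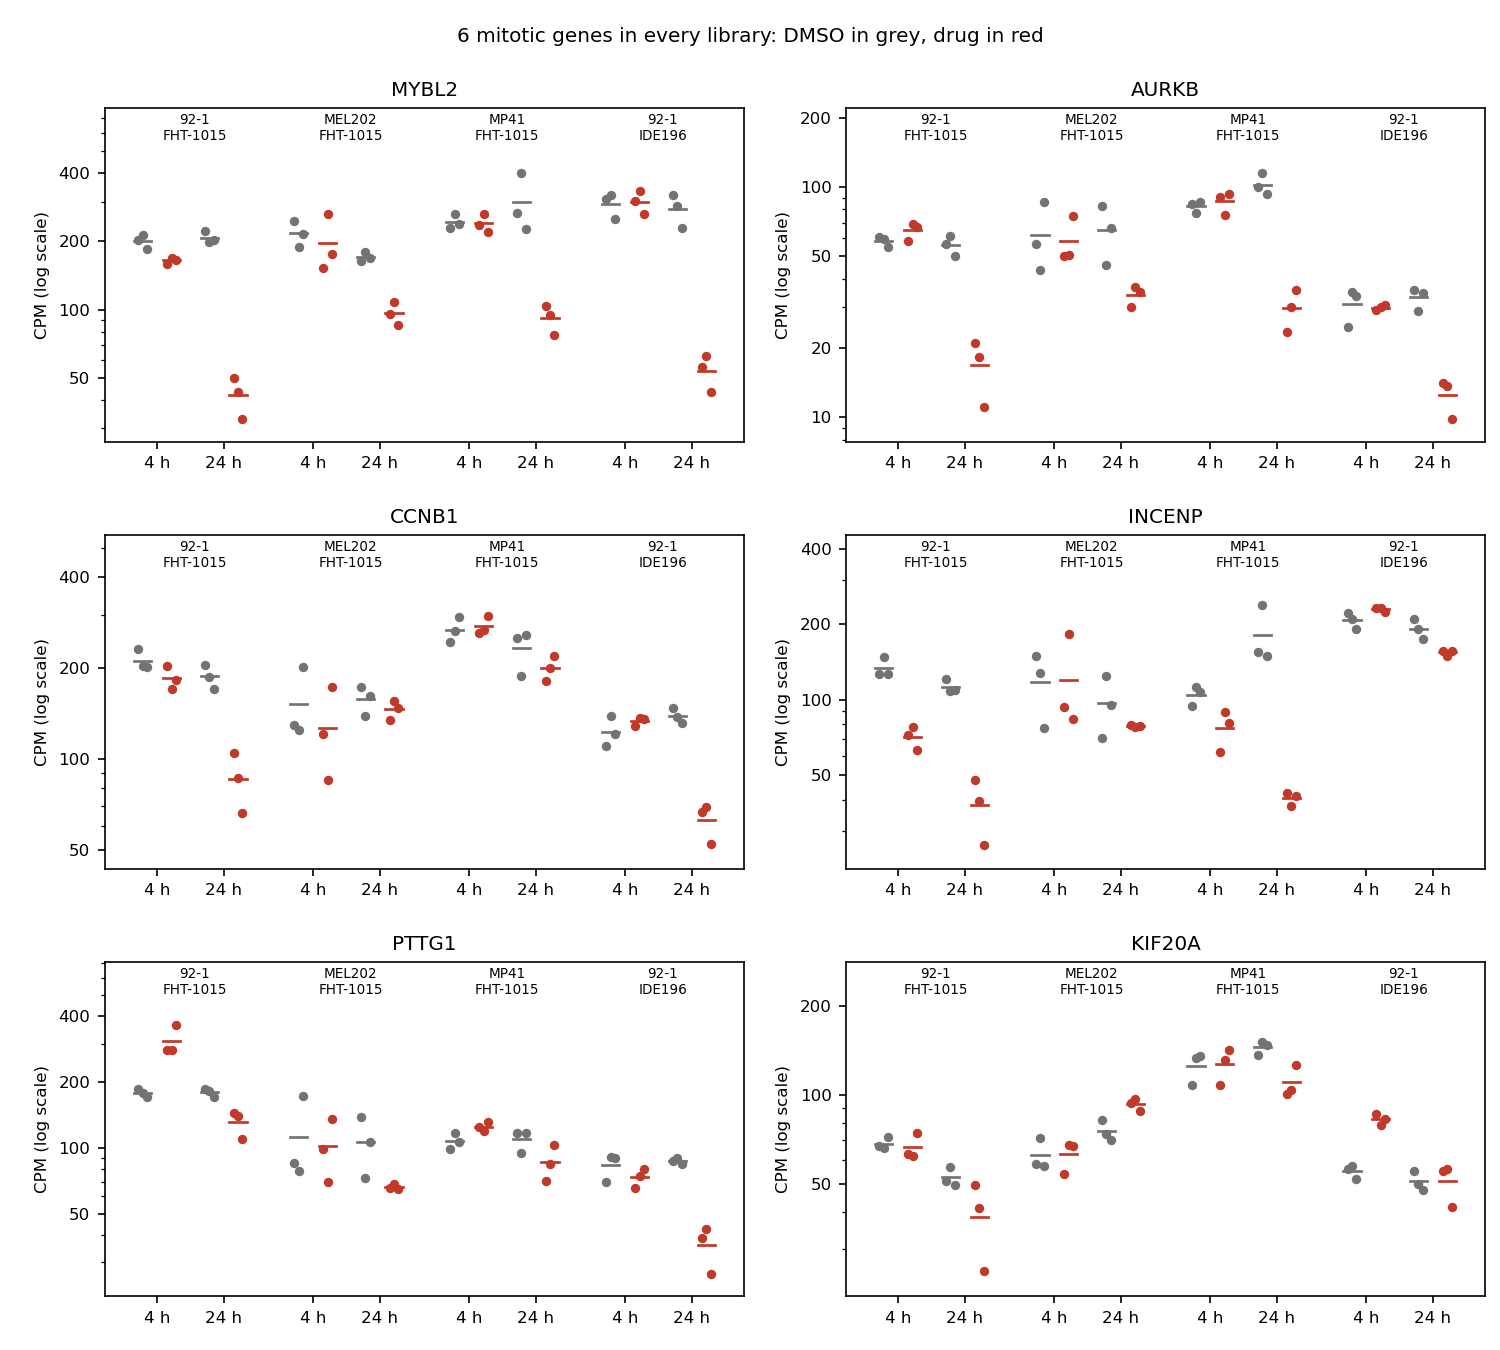
CPM on a log axis of MYBL2, AURKB, CCNB1, INCENP, PTTG1 and KIF20A in every library, DMSO in grey and drug in red, with a line at the mean of each group of 3. MYBL2 and AURKB at 24 h have treated libraries under all controls in the 4 experiments, while INCENP falls with FHT-1015 in 92-1 and MP41 and with IDE196 at 24 h. CPM is scaled within an experiment only. The IDE196 controls had more INCENP than the other 92-1 controls, by 0.74 at 4 h and 0.87 at 24 h on the log2 scale.

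IDE196 lowered as many mitotic genes of 92-1 at 24 h, by a similar median. Of 47 members 42 fell and none rose (median -0.94), where 29.4% of all genes tested fell and 28.7% rose. Of 4 fibroblast markers tested COL1A1 rose (0.80), and the mitochondrial share was 6.66%, 7.74% and 7.45% with IDE196 and 5.28%, 4.55% and 3.79% with DMSO. Their part in the result was not tested. No member with a positive estimate passed by edgeR or DESeq2, and 42 of the 47 had an unadjusted p under 0.05. MYBL2 again led, from 321, 285 and 228 CPM to 55.8, 62.5 and 43.3 CPM (-2.37, SE 0.15). MAD2L1 and NCAPH followed at -1.83 each, then CDK1 (-1.66), which went from 90.9, 82.5 and 83.1 CPM to 25.1, 32.4 and 23.9 CPM. In all 42 every treated library lay under every control, as in 32.3% of all genes.

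By role, IDE196 at 24 h lowered 5 of 7 genes of mitotic entry (median -0.94), both transcription factors (-1.85), 7 of 7 checkpoint and anaphase-promoting complex genes (-1.20), 5 of 6 kinetochore genes (-0.83), 5 of 5 Aurora and passenger genes (-1.13), 6 of 7 spindle genes (-0.69), 4 of 5 midzone genes (-0.89), 6 of 6 chromosome structure genes (-1.08) and both other kinases (-1.47). The members that did not pass were CENPE (-0.31, adjusted p = 0.09), CCNB2 (-0.22), CDC25C (0.25), NUSAP1 (-0.10) and KIF20A (0.00). KIF20A, a motor of cytokinesis, was at 55.3, 49.9 and 47.5 CPM with DMSO and at 55.2, 56.1 and 41.6 CPM with IDE196, so the groups were interleaved. PTTG1 fell by 1.27, from 87.0, 89.4 and 84.3 CPM to 38.5, 42.5 and 26.5 CPM. INCENP fell by 0.32 and CDC25B by 0.30, from 247, 253 and 229 CPM to 198, 213 and 181 CPM. CDC25B was the only member called in opposite directions by the drugs at 24 h, and with offsets for GC and length its call with IDE196 was lost (-0.17, adjusted p = 0.068).

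At 4 h IDE196 lowered no member by edgeR, DESeq2 or limma-voom (10 had an unadjusted p under 0.05, in either direction) and raised 3 of 47 by edgeR, 8 by DESeq2 and 7 by limma-voom, while 9.3% of all genes fell and 6.89% rose by edgeR. In 12 members every treated library lay over every control, as in 14.8% of all genes. Those called by edgeR were CDC25C (0.81, SE 0.16), KIF20A (0.59, SE 0.11) and HMMR (0.38, SE 0.11). KIF20A went from 55.8, 57.5 and 51.7 CPM to 86.2, 79.2 and 82.5 CPM, and CDC25C from 6.48, 6.11 and 4.80 CPM to 9.32, 10.2 and 11.02 CPM. In both genes every treated library lay over every control. The count of 3 became 5 without control 6 of 24 h or treated library 3 of 4 h, and 6 without treated library 2 or 3 of 24 h. Between the times 43 members turned lower and none higher (17.2% and 13.5% of all genes), MYBL2 (-2.40), MAD2L1 (-1.64) and NCAPH (-1.78) with the smallest p, and KIF20A by -0.59.

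The effects of the drugs on 92-1, each against its own DMSO, were then compared. At 24 h 39 members were lower with both, as were 20.1% of all genes tested with both. CCNB2, CDC25C and KIF20A were called lower with FHT-1015 alone, and HMMR and CKAP2L with IDE196 alone. With offsets for GC and length CDC25C (-0.24) and KIF20A (-0.24) were no longer called with FHT-1015, nor were PLK1 (-0.28) and KIF4A (-0.39), and HMMR was no longer called with IDE196 (-0.11). The difference between the drugs was 0.06 for each of HMMR and CKAP2L, -0.47 for CCNB2 and -0.45 for KIF20A, and passed for none of these. The difference between the effects passed for 4 members that lay lower with FHT-1015 (17.1% of all genes). They were INCENP (-1.26, SE 0.18), CDCA8 (-0.71), CDC25C (-0.68) and KIF23 (-0.44). It also passed for 2 that lay lower with IDE196 (15.9%), namely CDC25B (0.50, SE 0.11) and PTTG1 (0.82, SE 0.20). INCENP and CDCA8 are both subunits of the chromosomal passenger complex, and the other subunits, AURKB and BIRC5, did not pass this test. Leaving out the first FHT-1015 library of 24 h made the 6 members 11, and leaving out the third IDE196 library made them 10. Without the third FHT-1015 library, the lowest of its group, 1 member was lower and 7 higher with FHT-1015, and without the second IDE196 library 1 and 4. Across the 47 members the changes with the drugs at 24 h correlated with r = 0.71 (rho = 0.69), a description over genes that share those libraries.

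At 4 h the difference passed for 11 members. Lower with FHT-1015 than with IDE196 were INCENP (-1.05, SE 0.18), CDC25C (-0.88, SE 0.23), KIF20A (-0.63), HMMR, SMC4, BUB1, CENPF, ANLN, DLGAP5 and KIF11 (-0.52 to -0.71), where 14% of all genes were lower. PTTG1 was higher (0.98, SE 0.19), as were 10.7% of all genes. Single 4 h libraries moved this count. It was 4 with control 1 or treated library 3 of the FHT-1015 experiment left out, or control 6 or treated library 2 of the IDE196 experiment. It was 5 with control 2 of the former or treated library 1 of the latter left out, and 7 with treated library 2 of the former left out. The control sets of 92-1 differed too, in 22 members at 4 h and 20 at 24 h (46.1% and 45.2% of all genes). With the IDE196 set relative to the other, CDC25B was higher by 0.76 at 4 h and 0.75 at 24 h and INCENP by 0.74 and 0.87, while PTTG1 differed by -0.99 and -0.94. CDC25C (-0.48) and KIF23 (-0.65) differed at 24 h as well. These 5 are among the 6 members that separate the drugs at 24 h, CDCA8 being the other, and what part the control sets have in that was not tested.

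In MP41 the number of members called at 24 h moved with the control libraries used. With all libraries 21 of 47 members were lower and none higher (median -0.49; 18.7% and 17.4% of all genes), and 26 had an unadjusted p under 0.05. DESeq2 called none higher either, and limma-voom called 27 lower and 5 higher. All 21 were also lower in 92-1. The endothelial marker VWF fell (-2.11), and its part in the result was not tested. INCENP led, from 155, 238 and 149 CPM to 42.4, 37.7 and 41.5 CPM (-2.16, SE 0.20), then AURKB (-1.79, SE 0.17), from 99.8, 115 and 93.1 CPM to 23.4, 30.1 and 35.7 CPM, and MYBL2 (-1.70, SE 0.20), from 268, 402 and 227 CPM to 103, 94.7 and 77.0 CPM. In these genes no treated library reached a control. The passenger complex and Aurora genes fell together (5 of 5, median -1.16), as did both transcription factors, FOXM1 by 1.22.

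The other members called lower in MP41 were UBE2C (-1.38), NCAPH (-1.32), KIF2C (-1.21), MKI67 (-1.19), CDCA8 (-1.16), CDC20 (-1.08), CENPA (-1.02), PLK1 (-0.99), MELK (-0.89), KIF23 (-0.87), MAD2L1 (-0.85), KIF4A (-0.83), BIRC5 (-0.79), CCNA2 (-0.74), BUB1B (-0.74), TPX2 (-0.73) and AURKA (-0.69). PLK1 went from 126, 178 and 120 CPM to 76.2, 66.5 and 71.1 CPM, further than in 92-1 in point estimate. The 26 that did not pass were CDK1, CCNB1, CCNB2, CDC25B, CDC25C, BUB1, TTK, PTTG1, NDC80, NUF2, SPC25, CENPE, CENPF, KIF11, NUSAP1, HMMR, DLGAP5, CKAP2L, KIF20A, ANLN, ECT2, TOP2A, NCAPG, SMC2, SMC4 and PBK. Several have controls far from each other. CENPE was at 18.2, 8.06 and 91.9 CPM with DMSO and at 51.6, 49.6 and 53.8 CPM with the drug, and TOP2A at 235, 80.0 and 441 CPM against 187, 204 and 263 CPM. In both the low controls are replicates 1 and 2, those that lean towards GC-rich genes. The treated libraries of CENPE lie between them and replicate 3, and those of TOP2A lie over replicate 2 and under replicate 3.

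Without those 2 controls, 41 of 48 members were lower in MP41 at 24 h (median -0.95; 16.4% of all genes), with 1 control library left at that time, whose spread is taken from the other groups. CDK1 (-1.52), ANLN (-1.43), TOP2A (-1.03) and CENPE (-0.85) were then called, with INCENP (-1.90), AURKB (-1.66), MELK (-1.43), KIF23 (-1.42) and MYBL2 (-1.32). CCNB1 (-0.38), CDC25B (0.15), CDC25C (-0.53), KIF20A (-0.43), NUSAP1 (-0.83), PRC1 (0.41) and PTTG1 (-0.46) were not. Across members the change in MP41 correlated with GC content with r = -0.733 (rho = -0.714, 47 genes that share the same libraries, a description only). Without the 2 libraries r was 0.06 over 48 genes. They were left out for their own GC slope, so this loss of the correlation was nearly built in. The control kept, replicate 3, had the highest median over members (0.34 on the log2 scale, against -0.10 and -0.46), and its part was not tested. With offsets for GC and length r was -0.319 and 36 of 47 members were lower. With control 2 alone left out 34 members were lower. With control 3, the one with little GC slope, left out, 23 were lower and 6 higher.

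**Figure D4:**
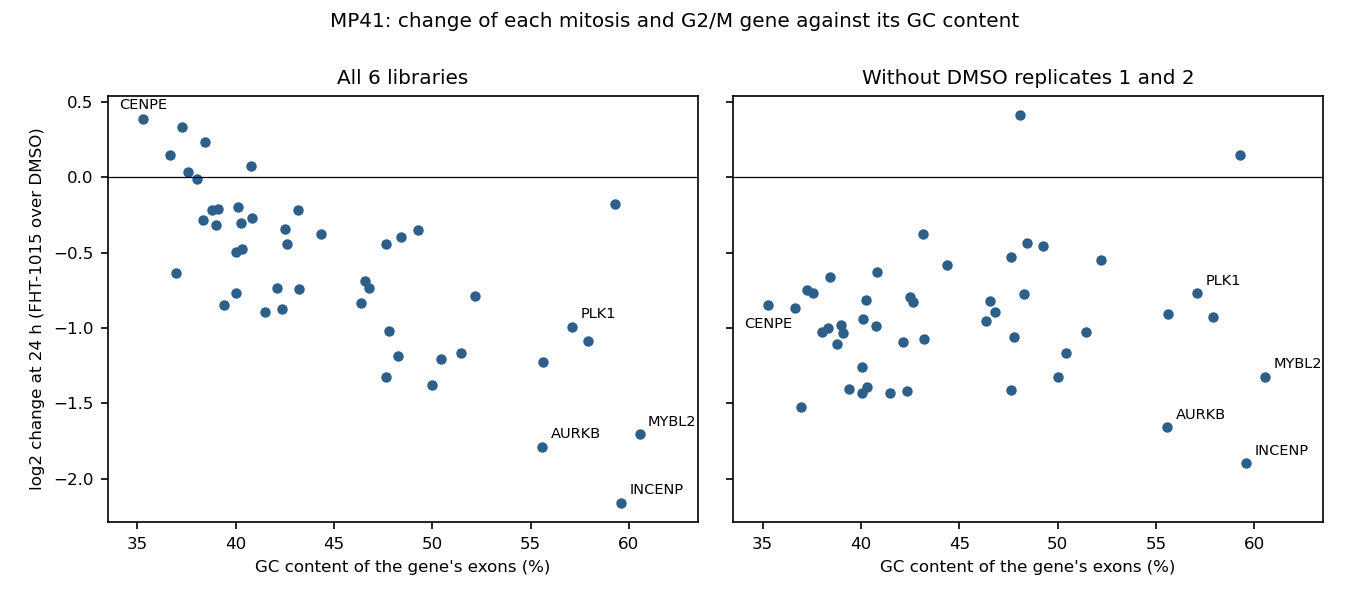
Log2 change of each member in MP41 at 24 h against the GC content of the gene in percent, with all 6 libraries of that time and without replicates 1 and 2 of DMSO. With all libraries the change tends to be lower in members with more GC (r = -0.733). Without the 2 libraries, which were left out for their own GC slope, r is 0.06 and 46 of 48 members lie below 0.

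At 4 h no member of MP41 was called by edgeR or DESeq2 (limma-voom called 1), with 1 of 47 at an unadjusted p under 0.05, while 0.154% of all genes were lower and 0.0708% higher. Between the times 15 members turned lower and none higher in MP41 (10.9% and 7.73% of all genes), AURKB (-1.85), NCAPH (-1.37) and INCENP (-1.73) with the smallest p. Without the GC-leaning libraries 33 did. With control 3 of 24 h left out 24 were called, 5 of them higher. In DMSO alone INCENP was higher at 24 h than at 4 h by 0.79, the only member called by edgeR (2.59% of all genes), while DESeq2 called 3 and limma-voom 26, and that call was lost without the GC-leaning libraries. With control 3 of 24 h left out, the 2 GC-leaning controls remain and 23 members were lower and 5 higher at 24 h than at 4 h in DMSO.

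MEL202 changed least in the number of members called. At 24 h 2 of 48 members were lower, MYBL2 and AURKB, and none was higher (median -0.19), where 10.1% of all genes fell and 8.69% rose. The fibroblast marker COL3A1 rose (2.87) and the leukocyte marker PTPRC fell (-3.20). The 20 most abundant genes took 10.7% to 12.4% of reads with the drug and 9.30% to 10.4% with DMSO. The mitochondrial share overlapped, at 5.36% to 7.77% against 3.32% to 5.74%. The part of these in the result was not tested. MYBL2 went from 164, 179 and 170 CPM to 96.1, 109 and 86.0 CPM (-0.82, SE 0.22, adjusted p = 0.019). AURKB went from 82.5, 46.0 and 66.4 CPM to 30.2, 36.6 and 35.1 CPM (-0.94, SE 0.28, adjusted p = 0.033). Neither gene overlapped between the groups, and 20 of the 48 members had every treated library under every control, against 25.1% of all genes. In all 7 members had an unadjusted p under 0.05 by edgeR, and limma-voom called 17 lower and 2 higher.

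The estimates of the other members of MEL202 ran from losses near those of AURKB to none. MELK (-0.86), UBE2C (-0.78), MAD2L1 (-0.70), CDK1 (-0.68), PTTG1 (-0.68), KIF23 (-0.61) and NCAPH (-0.52, adjusted p = 0.059) were among the lowest that did not pass. CDK1 was at 148, 104 and 124 CPM with DMSO and at 71.3, 81.9 and 82.8 CPM with the drug. Its groups were apart, yet its adjusted p was 0.35. CCNB1 (-0.11), TOP2A (-0.09), PLK1 (0.05) and SMC4 (0.00) lay near 0. KIF20A was at 81.7, 73.5 and 70.0 CPM with DMSO and at 93.8, 96.8 and 87.9 CPM with FHT-1015 (0.31), all 3 treated libraries over the controls, and it did not pass. The fit of MEL202 had the widest spread: the median SE over members was 0.30 in MEL202 at 24 h, against 0.17 in 92-1, and the smallest change called was 0.82 in size.

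Without the 2 GC-leaning libraries of MEL202, both from 4 h, 7 of 47 members were lower at 24 h, against 16.7% of all genes: MELK (-0.87), KIF23 (-0.62), NCAPH (-0.53), ANLN (-0.55) and MAD2L1 (-0.72) joined MYBL2 (-0.83) and AURKB (-0.95), at nearly the same estimates. Starting from all libraries, the 2 became 0 without control 3 of 24 h or treated library 1 or 3 of 24 h, and 1 without control 1 or treated library 2 of 24 h. They became 4 without control 1 or 3 of 4 h and 5 without treated library 2 of 4 h. At 4 h edgeR, DESeq2 and limma-voom called no member (1 of 48 at an unadjusted p under 0.05 by edgeR, with 0.522% of all genes lower and 0.157% higher). Between the times none was called by edgeR and 1 by DESeq2 (2 at an unadjusted p under 0.05 by either, with 6.89% of all genes called), and NCAPH had the smallest p (-0.73, adjusted p = 0.11).

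Whether the lines differ was tested in a joint fit of the 36 samples with FHT-1015 and their controls. At 4 h the effect differed for no member by edgeR or DESeq2 (2 at an unadjusted p under 0.05, with 1.38% of all genes called). At 24 h it differed for 12 of 48, while it differed for 12% of all genes. They were MYBL2 (adjusted p = 0.00076), INCENP (0.00098), KIF4A (0.006), NCAPG, CDCA8, PLK1, KIF2C, NCAPH, CCNB1, TPX2, KIF20A and CDC20. By pairs of lines, more members separated MEL202 from the other lines than separated MP41 from 92-1.

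In MEL202 the effect was weaker than in 92-1 for 9 members and stronger for none (3.02% and 2.33% of all genes had a higher or lower estimate called): MYBL2 by 1.45 (SE 0.27), NCAPG by 1.49 (SE 0.37), CDCA8 by 0.94 (SE 0.23), INCENP by 1.23, BUB1B, CCNB1, NCAPH, KIF2C and TPX2. It was stronger in MP41 than in MEL202 for 8 and weaker for none (3.36% and 2.17%): INCENP by -1.92 (SE 0.36), PLK1 by -1.10 (SE 0.25; not called without the GC-leaning libraries), KIF4A by -1.07 (SE 0.24), KIF2C, MYBL2, CDC20, CDCA8 and NCAPH. Between MP41 and 92-1 edgeR called NCAPG alone (1.39, SE 0.37; 3.85% of all genes had a higher and 4.62% a lower estimate called). With offsets for GC and length the counts were 29 higher for MEL202 minus 92-1, 22 lower for MP41 minus MEL202, and 5 higher and 1 lower for MP41 minus 92-1. The shares of all genes called with those offsets are not given here. Across 47 members the changes at 24 h in 92-1 correlated with those in MEL202 with r = 0.763 (rho = 0.77) and with those in MP41 with r = 0.539, or 0.745 without the GC-leaning controls, a description over genes. NCAPG was at 57.1, 39.9 and 105 CPM with DMSO in MP41, the lower values from the GC-leaning libraries, and at 57.3, 49.3 and 55.9 CPM with FHT-1015.

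Without the 4 GC-leaning libraries 22 members differed among the lines (13.5% of all genes) and 25 were weaker in MEL202 than in 92-1 (5.68%), MYBL2 by 1.47 and NCAPG by 1.51. NCAPG then no longer separated MP41 from 92-1 (0.77, adjusted p = 0.086), while MYBL2 did (0.94). With MP41 control 3 of 24 h left out, 25 members differed among the lines and 13 were weaker in MP41 than in 92-1. The count of 9 between MEL202 and 92-1 was 1 without treated library 3 of 92-1 at 24 h, the lowest for the members, and 3 to 5 without control 1 or treated library 2 of 24 h in 92-1, or control 1 or 3 or any treated library of 24 h in MEL202. The count of 8 between MP41 and MEL202 was 5 without control 1 or treated library 2 or 3 of 24 h in MEL202, or control 2 or treated library 1 or 2 of 24 h in MP41.

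Genes of S phase and replication fell in all 3 lines, MEL202 included. The list of 40 such genes came from general knowledge and was chosen with earlier results of these data known. At 24 h 40 fell in 92-1 with FHT-1015 (median -2.07), 36 in MEL202 (-1.34) and 39 in MP41 (-1.45). With IDE196 40 fell in 92-1 (-1.79), and none of the 40 rose in these comparisons. Of all genes tested 31.4%, 10.1%, 18.7% and 29.4% fell. The medians of the mitotic genes in the same comparisons were -0.93, -0.19, -0.49 and -0.94. CDC6, which loads the replicative helicase, changed by -3.44, -2.24, -2.45 and -3.18, and E2F1, the factor of the G1/S wave, by -3.13, -2.24, -2.19 and -3.76. In MEL202 UHRF1, which maintains DNA methylation behind the fork, changed most (-2.98). Without the GC-leaning libraries the counts were 39 of 40 in MEL202 (median -1.36) and 38 of 40 in MP41 (-1.50), where the medians of the mitotic genes were -0.20 and -0.95. At 4 h 12 S phase genes were lower and 1 higher in 92-1 with FHT-1015, 4 were lower and 1 higher with IDE196, and none passed in MEL202 or MP41. With IDE196 the share lower was near the 9.3% of all genes.

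**Figure D5:**
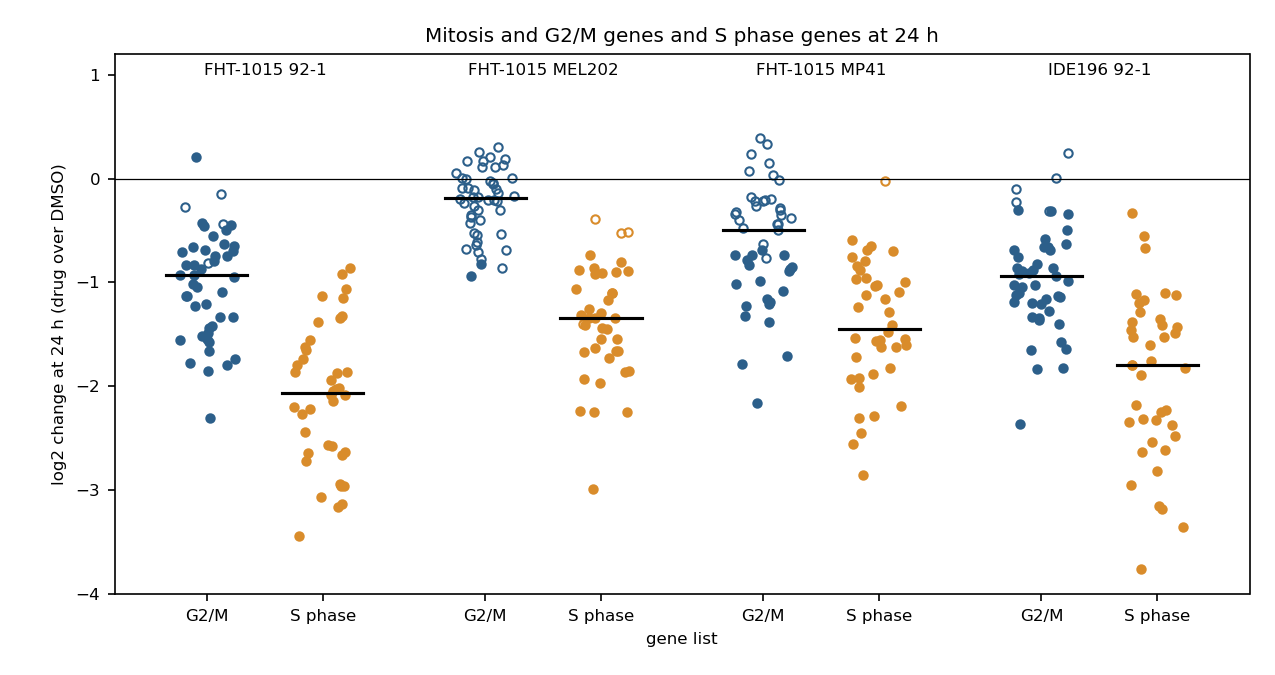
Log2 change at 24 h of the mitotic members and of 40 S phase and replication genes, 1 point per gene, for 92-1, MEL202 and MP41 with FHT-1015 and 92-1 with IDE196, filled where called, with a line at the median. The S phase median lies at -2.07, -1.34, -1.45 and -1.79, under the median of the members in each comparison (-0.93, -0.19, -0.49 and -0.94), with all libraries included.

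Other genes of the same machinery were counted in the order 92-1, MEL202 and MP41 with FHT-1015 and 92-1 with IDE196, at 24 h. Their lists came from general knowledge and were chosen with earlier results of these data known. Of 28 further kinetochore genes 25, 3, 11 and 26 were lower, and of 24 further spindle and cytokinesis genes 21, 1, 12 and 22. None of the former was higher, and of the latter KPNA2 was higher in MP41 (0.46; not called without the GC-leaning libraries) and NDE1 with IDE196 (0.44). Of all genes tested 31.4%, 10.1%, 18.7% and 29.4% were lower. Without the GC-leaning libraries the kinetochore counts were 13 in MEL202 and 22 in MP41, and the spindle counts 5 and 19. SKA3, of the complex that couples kinetochores to microtubules, changed by -1.95 in 92-1 with FHT-1015 and by -2.01 with IDE196, and had the largest called change of the kinetochore list in MEL202 (-0.86). In MP41 HJURP, the chaperone that loads CENPA, changed most (-1.76).

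Checkpoint and cohesion genes outside the members were lower in 12 of 14, 4 of 15, 7 of 15 and 13 of 14. CDC25A, the phosphatase of the family that acts from G1/S onwards, was lower in each of the 4 comparisons, at -2.86, -2.62, -2.85 and -2.86. Of 4 further condensin subunits 3, 1, 4 and 3 were lower, NCAPD3 in each (-1.01, -0.91, -1.06 and -1.22), and NCAPD2 was higher with IDE196 (0.20). Of 17 subunits and co-factors of the anaphase-promoting complex 6, 1, 2 and 8 were lower and 1, 0, 2 and 1 higher. Of all genes tested 31.4%, 10.1%, 18.7% and 29.4% were lower, so with FHT-1015 the falls in this list were near or under those shares. The pair lower in MP41, FBXO5 (-1.32) and the ubiquitin-conjugating enzyme UBE2S (-1.16), are co-factors and not subunits. FBXO5, an inhibitor of the complex and an E2F target, was also the lowest of the list in 92-1 with FHT-1015 (-1.32). Without the GC-leaning libraries, 5 of 15 checkpoint and cohesion genes were lower in MEL202 and 10 of 15 in MP41, 2 and 3 of the 4 condensin subunits, and 2 and 3 of the 17 subunits and co-factors of the anaphase-promoting complex.

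Among the genes of the DREAM and MuvB complexes and the pocket proteins, 7 of 12, 3 of 12, 4 of 11 and 7 of 11 were lower and 4, 0, 3 and 2 higher. Of all genes tested 31.4%, 10.1%, 18.7% and 29.4% were lower and 29.2%, 8.69%, 17.4% and 28.7% higher. The E2F partner TFDP1 fell in each comparison (-1.24, -1.05, -1.33 and -1.01), as did E2F4 and the pocket protein gene RBL1. RBL2, which encodes p130, the pocket protein of resting cells, rose in 92-1 (0.46), MP41 (0.68) and with IDE196 (0.76), and was at 0.55 without passing in MEL202. TFDP2 rose in the same 3 (1.02, 0.88 and 0.92). RB1 itself rose in 92-1 with FHT-1015 (0.99) and was at 1.05 in MP41 without passing (adjusted p = 0.051). LIN54 had the largest called rise of the list in MP41 (1.36) and fell in 92-1 with FHT-1015 (-0.49). E2F5, a repressor of the E2F family, rose in 92-1 with FHT-1015 (0.44) and fell with IDE196 (-1.73). Without the GC-leaning libraries 5 of 12 genes of this list were lower in MEL202 and 1 higher, and in MP41 5 were lower and 2 higher.

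Of 10 brakes on the cell cycle 6, 4, 5 and 4 were lower and 1, 0, 1 and 3 higher. Of all genes tested 31.4%, 10.1%, 18.7% and 29.4% were lower and 29.2%, 8.69%, 17.4% and 28.7% higher. With IDE196 the share of brakes that were higher was near that of all genes. The members of this list that fell are mostly kinases of the replication and G2 checkpoints: PKMYT1, which holds CDK1 inactive, changed by -2.76, -1.43, -2.09 and -1.94, and CHEK1 by -2.18 in 92-1 with FHT-1015 and -1.95 with IDE196. WEE1, the second kinase that inhibits CDK1, fell in 92-1 with FHT-1015 (-1.50), in MP41 (-0.76) and with IDE196 (-1.37). CDKN1B, which encodes the inhibitor p27, rose in 92-1 (0.47), MP41 (0.48) and with IDE196 (0.66), and was at 0.31 without passing in MEL202. BTG2, an antiproliferative gene, rose with IDE196 alone among the comparisons (1.35). CDKN1A, which encodes p21, fell with FHT-1015 in the 3 lines (-0.95, -0.68 and -0.42) and was at -0.26 without passing with IDE196. Without the GC-leaning libraries 5 of the 10 brakes were lower in MEL202, and in MP41 6 were lower and none higher, so that CDKN1B was no longer called there.

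The promoter motifs were set beside the changes, as a description. The 5 members without a CHR in the window had medians at 24 h of -1.74 in 92-1, -0.82 in MEL202, -0.89 in MP41 and -1.40 with IDE196. Those with a CHR had medians of -0.81 (35 tested), -0.11 (36), -0.40 (35) and -0.88 (35). Of the 5 without a CHR 5, 2, 4 and 5 were lower, and of those with a CHR 30, 0, 12 and 30. The 2 in MEL202 were MYBL2 and AURKB. These counts thus restate in part that the genes lower in all 4 comparisons hold no CHR. Leaving out the GC-leaning libraries, the medians without and with a CHR were -0.83 and -0.12 in MEL202 (3 of 5 and 4 of 35 lower) and -1.32 and -0.93 in MP41 (5 of 5 and 29 of 36 lower). A CHR and a CCAAT stood together in the windows of 27 of the 41 members (65.85%).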

How the data were processed

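The authors deposited raw read counts per gene for each of the 48 samples, whole numbers with an unstranded column, in the layout of STAR gene counts. Per the labels' protocols, poly-T selected mRNA was made into libraries with a NEBNext Ultra RNA kit. The submitters' processing notes name hg38 and limma, and the aligner version and annotation are not given in the sources used here. Symbols, roles and positions use GENCODE 29 (GRCh38) by unversioned identifier, which held 58597 of 58870 genes and all 48 members (9 at the same version). The members and all gene lists were chosen with earlier results of these data known.

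Each experiment (a line with a drug and its DMSO, 12 samples) was fitted with edgeR 4.0.16 in R 4.3.3: TMM scaling, filterByExpr, 4 groups, quasi-likelihood F-tests, Benjamini-Hochberg adjustment over all genes tested (15437 to 15913) and a threshold of 0.05. Lines were compared in a fit of 36 samples and drugs in a fit of 24. The common biological coefficient of variation was 0.117 (92-1), 0.2944 (MEL202), 0.2168 (MP41) and 0.1122 (IDE196). Named were all members not called at 24 h in 92-1 and MP41 and the 3 largest changes per comparison. No main fit had a replicate block. Deviations of treated and control libraries with the same number correlated over 0.1 in every pair only at 4 h in 92-1 (0.479, 0.141 and 0.27) and at 4 h in MP41 (0.262, 0.469 and 0.234), so the numbers were taken to pair those samples. Fits were tested on simulated data. Alternatives were other scaling, DESeq2 1.42.0, limma-voom 3.58.1, other sample sets, a block and left-out libraries. After the data were seen, 3 were added: GC and length offsets, leaving out the 4 libraries with a GC slope over 0.3, and a block across times for IDE196.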

Additional observations from a re-analysis of the deposited data

Results flagged for a closer look

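Effects that differed between times, drugs or lines by a test of the difference itself are collected here. The effect of FHT-1015 differed between 24 h and 4 h for 32 members in 92-1 (24.3% of all genes lower and 21.1% higher) and 15 in MP41 (10.9% and 7.73%), or 33 there without the GC-leaning libraries, and that of IDE196 for 43 members (17.2% and 13.5%). FHT-1015 and IDE196 differed in 92-1 for 11 members at 4 h (14% and 10.7% of all genes) and 6 at 24 h (17.1% and 15.9%), near the background at 4 h and under it at 24 h. INCENP was lower with FHT-1015 by -1.05 at 4 h and -1.26 at 24 h, CDC25C by -0.88 at 4 h, PTTG1 was higher by 0.98 and 0.82, and CDC25B by 0.50 at 24 h. The lines differed for 12 members at 24 h (12% of all genes). The change in MEL202 minus that in 92-1 was 1.45 for MYBL2, 1.49 for NCAPG and 0.94 for CDCA8. For NCAPG it was 1.39 in MP41 minus 92-1, which did not pass without the GC-leaning libraries. In MP41 minus MEL202 it was -1.92 for INCENP, -1.07 for KIF4A and -1.10 for PLK1, of which PLK1 did not pass without those libraries.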

How the results depend on the processing

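The counts of members lower at 24 h in 92-1 stayed within 1.5 times the main value under every alternative run, at 32 to 45 with FHT-1015 and 33 to 43 with IDE196, lowest with all 48 samples in 1 fit. Of 3873 values for 378 results of single genes, 3646 kept their call or stayed uncalled, 45 lost the call and 174 gained it. A further 8 turned, that is, changed sign with a call in the main or the alternative fit. With a sample left out 4412 of 4536 kept their call or stayed uncalled. A change of sign without a call in either fit was not counted as turned. Where a value moved, the cause was not tested, beyond the changed number of samples. The counts below are of members only. They do not show whether calls over all genes moved as well.

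In 92-1 with FHT-1015, the 6 members lower at 4 h were 13 with no filter, 13 with limma-voom, 12 with GC and length offsets, 15 with the replicate block, 13 with only the compared samples fitted, 1 with all 48 samples in 1 fit, and 2 to 14 with a sample left out. The 1 higher at 24 h was 0 with no filter and with all 48 samples, and 0 to 1 with a sample left out. The 32 that differed between the times were 18 with all 48 samples, and the 0 changed in DMSO were 1 with no filter.

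In MEL202, the 0 lower at 4 h were 1 with GC offsets. The 2 lower at 24 h were 4 with no filter, 4 with DESeq2, 17 with limma-voom, 10 with GC offsets, 7 without the GC-leaning libraries, 14 with only the samples compared, 9 with all 48, and 0 to 5 with a sample left out. The 0 higher at 24 h were 2 with limma-voom and 1 with GC offsets. The 0 between times were 1 with DESeq2, 3 with limma-voom, 5 with GC offsets, 1 without the GC-leaning libraries and 4 with all 48. The replicate block gave 3, adding MELK.

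In MP41, the 0 lower at 4 h were 1 with limma-voom. The 21 lower at 24 h were 36 with GC offsets, 41 without the GC-leaning libraries and 18 to 34 with a sample left out. The 0 higher were 5 with limma-voom and 0 to 6 with a sample left out. The 15 between times were 30 with limma-voom, 30 with GC offsets, 33 without the libraries and 10 to 24 with a sample left out. The 1 changed in DMSO was 19 with no filter, 3 with DESeq2, 26 with limma-voom, 0 with the sum of the stranded columns, with GC offsets, without the libraries and with only the samples compared, 2 with all 48, and 0 to 28 with a sample left out (28 without replicate 3 at 24 h). Single genes that changed sign with a call in either fit did so in MP41 at 24 h. Without the libraries CENPE was -0.85, DLGAP5 -0.66, HMMR -0.86, SMC2 -0.77, SMC4 -0.75 and TTK -0.99. SMC2 was -0.41 with GC offsets, and ECT2 0.55 with limma-voom and -0.43 to 0.93 with a sample left out (highest without control 3 of 24 h).

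With IDE196, the 3 higher at 4 h were 6 with no filter, 8 with DESeq2, 7 with limma-voom, 5 with the stranded sum, 8 with GC offsets, 5 with only the samples compared and 2 to 6 with a sample left out. The 0 higher at 24 h were 1 with GC offsets, the 43 between times 24 with all 48, and the 0 in DMSO 2 with no filter. No paired analysis was possible for the effect of IDE196 at a time because its libraries and their DMSO share no replicate numbers. With a replicate block on the numbers shared across times, chosen after seeing the data, 43 members differed between times and 0 changed in DMSO.

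Between lines, the 0 at 4 h were 1 with limma-voom and 1 with GC offsets, and the 12 at 24 h were 20 with no filter, 42 with limma-voom, 33 with GC offsets, 19 with the replicate block, 22 without the libraries and 8 to 25 with a sample left out. Between drugs, the 11 at 4 h were 18 with only the samples compared, 3 with all 48 and 4 to 12 with a sample left out, and the 6 at 24 h were 10 with limma-voom, 12 with GC offsets, 2 with all 48 and 4 to 11 with a sample left out. The control sets differed in 11 members at 4 h and 9 at 24 h with all 48, and 12 at 24 h with GC offsets. The replicate block changed no other count by over 1.5 times.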
